A study of Homo sapiens
Mus musculus with 16 samples.

Results

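The drug efflux transporters described here are 9 human genes of the ATP-binding cassette (ABC) family: ABCB1 (ENSG00000085563), ABCB5 (ENSG00000004846), ABCC1 (ENSG00000103222), ABCC2 (ENSG00000023839), ABCC3 (ENSG00000108846), ABCC4 (ENSG00000125257), ABCC5 (ENSG00000114770), ABCC10 (ENSG00000124574) and ABCG2 (ENSG00000118777). They were chosen by name for their role in drug export and read by these Ensembl IDs from the human count matrix. All 9 are among its 58051 gene IDs, and 7 of the 9 had enough counts to be tested.

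The tumours were grown from MDA-MB-231, a human triple-negative breast cancer line, by injecting 2000000 cells in 50 µl of PBS and Matrigel into the mammary fat pad of Balb/c nude mice, which lack a thymus and so most T cells. The combination group received nab-paclitaxel, an albumin-bound taxane, at 30 mg/kg on days 15, 22 and 29 together with phenelzine, a monoamine oxidase inhibitor, at 40 mg/kg daily from day 15. The nab-paclitaxel group and the phenelzine group received 1 of these drugs at the same dose and times, and the vehicle group neither, all by intraperitoneal injection. Each group had 4 tumour libraries, 1 from each mouse, and tumours were removed on day 50.

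ABC transporters bind and hydrolyse ATP to move substrates across membranes, and those at the cell surface push drugs and drug conjugates out of the cell. ABCB1, or P-glycoprotein, is the classical exporter of taxanes. Of the ABCC family, ABCC2 and ABCC10 have also been shown to carry taxanes, whereas ABCC1 and ABCC3 are known mainly for exporting glutathione and glucuronide conjugates and ABCC4 and ABCC5 for cyclic nucleotides and nucleotide analogues. ABCG2, the breast cancer resistance protein, exports many drugs but is not regarded as a main taxane carrier, and ABCB5 is best known from melanoma cells that survive chemotherapy.

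Human counts totalled 11065140 to 34537399 per library. Tumours held mixed tissue, and the mouse share of all counts, the host part, ran from 9.25% to 71.2%. Of the 8 libraries with nab-paclitaxel, 4 stood apart from all others on the first principal component of the human genes, which held 48.7% of the variance: combination 1 and 3 scored 117 and 120.4, nab-paclitaxel 1 and 4 scored 125 and 72.7, and the other 12 libraries -56.6 to 5.37. Their mouse shares were 71.2% and 55.9% for combination 1 and 3 and 59.7% and 41.9% for nab-paclitaxel 1 and 4. Effects of nab-paclitaxel averaged over phenelzine are given with and without them for ABCC1, ABCC2, ABCC3 and ABCC4, where they held the extreme values. Sums, spreads and correlations among the transporters include them. Levels are counts per 1000000 human counts, scaled by TMM (CPM), and a sum of bulk RNA cannot tell fewer cells from less RNA per cell. Levels of different transporters are not ranked, because transcript lengths were not at hand. Tumour cell markers were not checked, since the IDs of the matrix could not be paired with other gene names.

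**Figure D1:**
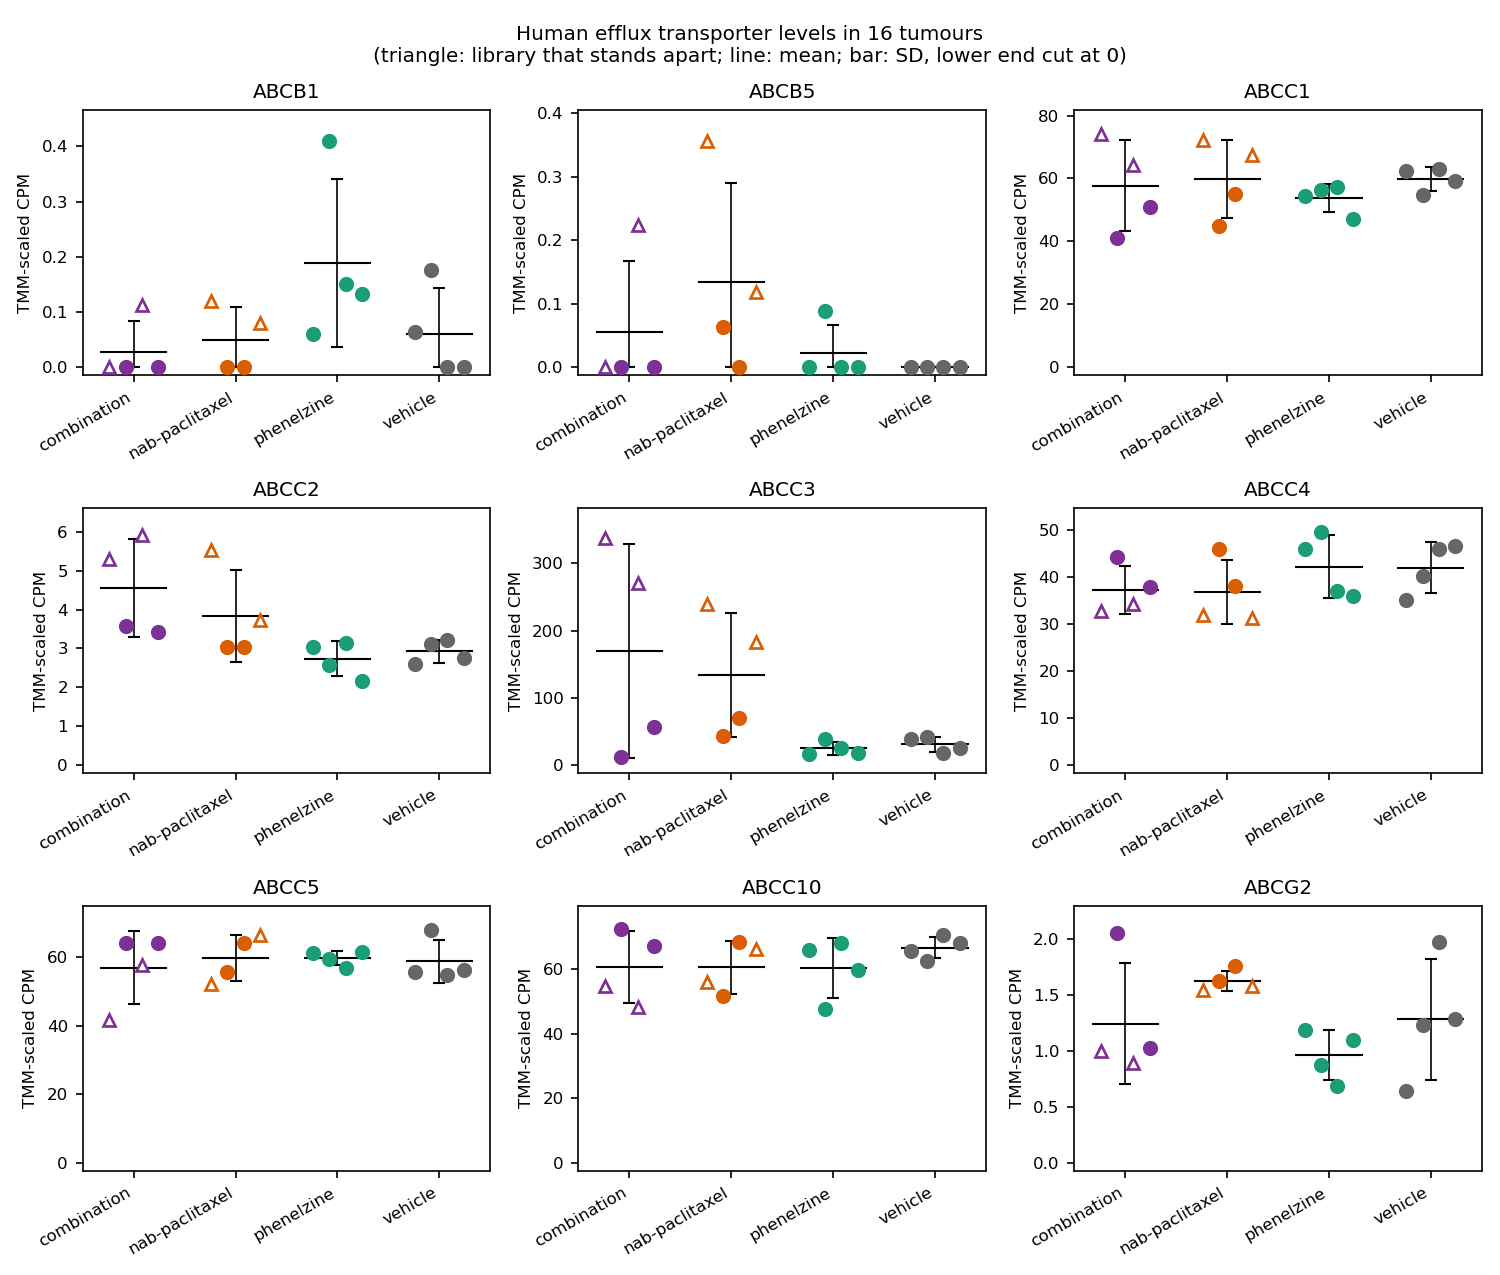
TMM-scaled CPM (y axis, linear) of the 9 transporters in 16 tumours, by group (x axis). Points are libraries, open triangles are the 4 libraries that stand apart, lines are means and bars SD with n = 4, cut at 0. In the ABCC3 panel the triangles lie at 184 to 337 CPM, above every other library.

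ABCB1 RNA, the messenger of the main taxane pump, was at the edge of detection in every group. The gene spans chr7:87503017-87713295 in RefSeq's GRCh38.p14 annotation. In the combination tumours 0, 0, 2 and 0 counts were assigned to it for mice 1 to 4, and with nab-paclitaxel 2, 0, 0 and 2. With phenelzine there were 2, 14, 5 and 4 counts, and with vehicle 2, 4, 0 and 0. Of its 37 counts in all, 25 were thus in phenelzine tumours, 14 of them in 1 library, while 7 libraries were listed at 0. A count of 0 allows up to 3 counts, which is 0.0879 to 0.274 CPM at these depths and covers counting error only. The highest level, in phenelzine 2, was 0.41 CPM.

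ABCB5, at chr7:20615667-20757008, was as scarce, with 18 counts in 5 of the 16 libraries. The combination tumours held 0, 0, 4 and 0 counts, the nab-paclitaxel tumours 6, 2, 0 and 3, the phenelzine tumours 0, 3, 0 and 0, and the vehicle tumours 0 in all 4. Neither gene passed the filter on low counts. When every gene with a count was fitted in edgeR, neither was called in any of the 8 contrasts. The lowest edgeR adjusted p was 0.395 for ABCB1, combination against phenelzine, and 0.164 for ABCB5, nab-paclitaxel averaged over phenelzine, where its unadjusted p was 0.0299. Low values in this matrix are not plain tallies of reads, since the value 1 occurs 14483 times and the values 2 and 3 occur 24107 and 24309 times. Differences between groups in these 2 genes were not detectable at this depth.

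ABCC3, or MRP3, an exporter of conjugated compounds and bile salts, differed most between tumours of the 7 genes tested. It spans chr17:50634881-50692253 (GRCh38.p14). Combination tumours 1 to 4 had 337, 12.3, 271 and 55.9 CPM, and nab-paclitaxel tumours 239, 43.4, 70.4 and 184 CPM. Phenelzine tumours had 17.0, 38.9, 25.0 and 18.1 CPM, and vehicle tumours 38.4, 41.6, 17.6 and 26.0 CPM. Of the 8 tumours with nab-paclitaxel, 7 were above all 8 without it, and combination 2 was the lowest of all 16. The 4 highest values belong to the 4 libraries that stand apart. Those were picked on the human genes as a whole, and the share of all genes with their 4 highest or lowest values there was not counted. Within the combination group the highest value was 27.4 times the lowest, and within nab-paclitaxel 5.51 times, against 2.29 times within phenelzine and 2.36 times within vehicle.

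Whether nab-paclitaxel changed transporter RNA was asked first over both phenelzine states, which sets 8 tumours against 8. ABCC3 rose, with 152 ± 122 CPM with nab-paclitaxel and 27.8 ± 10.4 CPM without (SD, n = 8 each). The log2 fold change, called log2 ratio from here on, was 2.44 (SE 0.55, adjusted p = 0.0102 in edgeR), or 5.44-fold. ABCC2, or MRP2, also rose, with 4.19 ± 1.19 CPM with nab-paclitaxel and 2.83 ± 0.368 CPM without (SD, n = 8 each), log2 ratio 0.56 (SE 0.176, adjusted p = 0.0421 in edgeR). The other 5 did not pass the threshold, so 2 of the 7 rose and 0 fell by the quasi-likelihood test of edgeR at an adjusted p of 0.05. Over all 18131 human genes tested, 17.3% passed in the same contrast, 11.2% rising and 6.07% falling. The median log2 ratio was 0.049 over the 7 transporters and -0.0096 over all genes.

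These calls were lost without the libraries that stand apart. All 4 had nab-paclitaxel, were set apart on the human genes themselves, and held the highest ABCC3 and ABCC2 values. Leaving them out therefore lowers both effects whatever the reason, and leaves fewer treated tumours. This fit cannot show what the calls rest on. Without these 4 libraries the log2 ratio of ABCC3 was 0.68 (SE 0.369, adjusted p = 0.401 in edgeR) and that of ABCC2 0.20 (SE 0.15, adjusted p = 0.553 in edgeR), and neither was called. With the mouse share as a covariate the values were 0.85 (SE 0.555, adjusted p = 0.689 in edgeR) for ABCC3 and 0.14 (SE 0.199, adjusted p = 0.901 in edgeR) for ABCC2. The 4 libraries with the highest ABCC3 had mouse shares of 41.9% to 71.2%, and the other 12 of 9.25% to 47.4%. Of those 12, combination 2 had the highest mouse share, 47.4%, and the lowest ABCC3, 12.3 CPM. Vehicle 2 had the highest mouse share, 37.8%, and the highest ABCC3, 41.6 CPM, of the vehicle tumours. Libraries with nab-paclitaxel had mouse shares of 18.6% to 71.2% and those without it 9.25% to 37.8%. These ranges overlapped, and both ends were higher with the drug. Host share and drug were thus partly linked, and the covariate fit cannot tell the 2 apart. The part of the host share in the result was not tested.

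**Figure D2:**
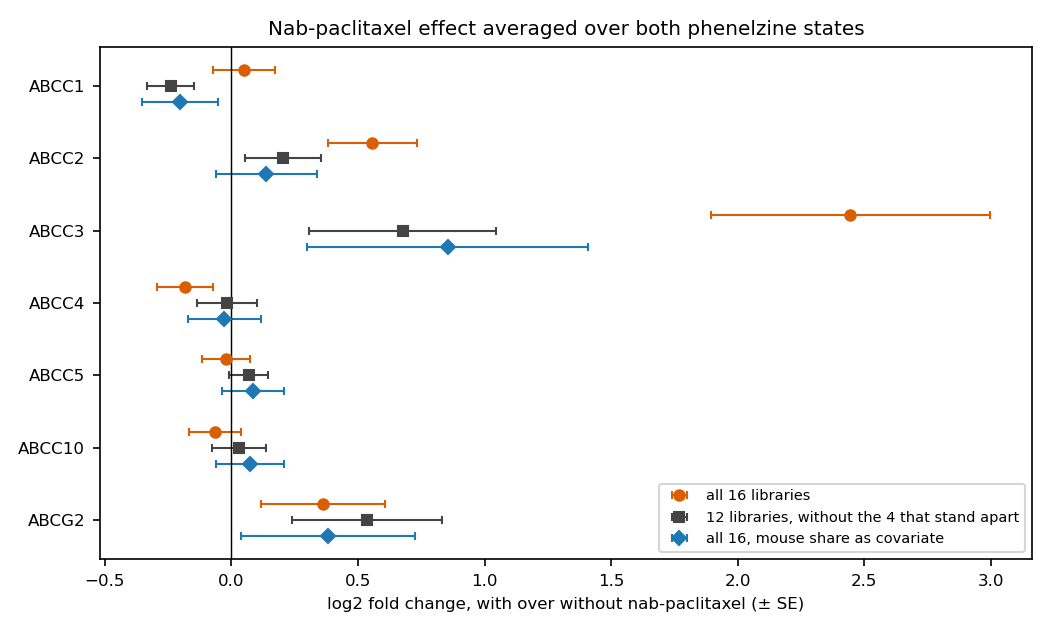
Log2 ratio with SE (x axis) of the 7 tested transporters (y axis), 8 libraries with over 8 without nab-paclitaxel, in 3 fits. ABCC3 lies at 2.44 with all 16 libraries, at 0.68 in the 12 libraries left without those that stand apart and at 0.85 with the mouse share as a covariate.

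**Figure D3:**
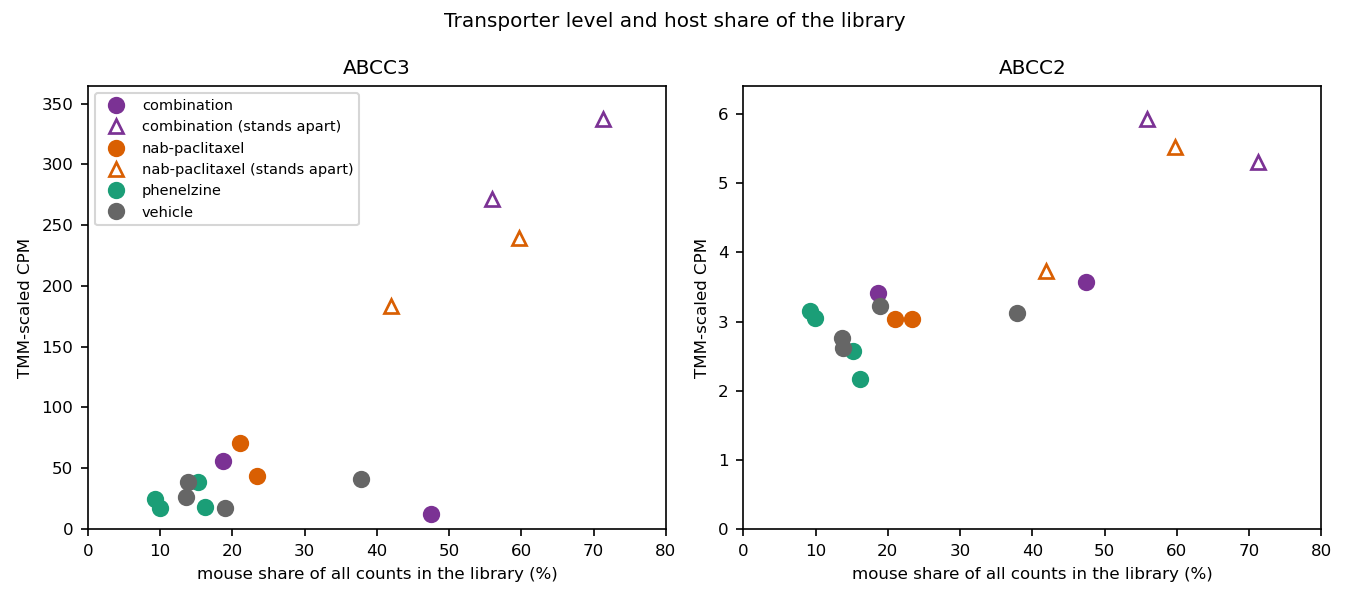
TMM-scaled CPM of ABCC3 and ABCC2 (y axes, from 0) against the mouse share of all counts in the library (x axis, %), 1 point per library, coloured by group. The libraries that stand apart (triangles) have mouse shares of 41.9% to 71.2%. Combination 2, at 47.4%, has 12.3 CPM of ABCC3, and vehicle 2, at 37.8%, has 41.6 CPM.

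With 1 library left out at a time, ABCC3 stayed past the threshold in all 16 fits, with log2 ratios of 2.17 to 2.65 and edgeR adjusted p of 0.00145 to 0.0247. ABCC2 stayed past it in 5 of the 16, without combination 2, combination 4, nab-paclitaxel 2, nab-paclitaxel 3 or phenelzine 3. Without any 1 of the other 11 libraries, which include all 4 vehicle libraries, its edgeR adjusted p was above the threshold, up to 0.0897. Its log2 ratio stayed between 0.46 and 0.63 over these fits. The ABCC2 call was also lost with limma voom (adjusted p = 0.111) and with no filter on low counts (edgeR adjusted p = 0.101).

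**Figure D4:**
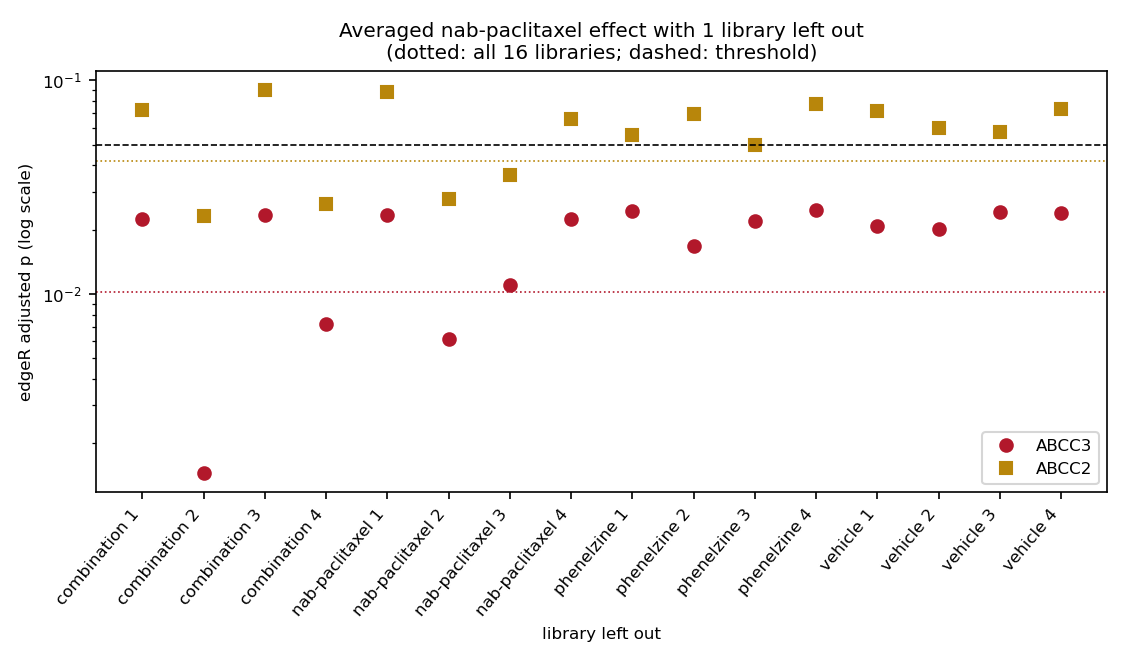
EdgeR adjusted p (y axis, log scale) of ABCC3 and ABCC2 for nab-paclitaxel averaged over phenelzine, with the library named on the x axis left out. Dotted lines are the values with all 16 libraries, 0.0102 and 0.0421, and the dashed line is the threshold of 0.05. All ABCC3 points lie under the threshold and 5 of 16 ABCC2 points do.

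ABCC2 is a low-level gene here, with 58 to 106 counts per library, and lies at chr10:99782640-99852594 (GRCh38.p14). Combination tumours 1 to 4 had 5.30, 3.58, 5.93 and 3.42 CPM, and nab-paclitaxel tumours 5.53, 3.03, 3.03 and 3.73 CPM. Phenelzine tumours had 3.05, 2.58, 3.15 and 2.16 CPM, and vehicle tumours 2.61, 3.12, 3.23 and 2.76 CPM. All 4 combination tumours were above all phenelzine and all vehicle tumours, while the nab-paclitaxel tumours overlapped with vehicle. The 4 highest values were again those of the libraries that stand apart, and the share of all genes for which this holds was not counted.

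Between single groups 0 of the 7 passed the threshold in edgeR. For nab-paclitaxel against vehicle, ABCC3 averaged 134 ± 92.7 CPM and 30.9 ± 11.1 CPM (SD, n = 4 each), log2 ratio 2.12 (SE 0.769, adjusted p = 0.150 in edgeR). These groups did not overlap in ABCC3, the only 1 of the 7 genes for which this held, where 15.1% of all genes tested did not overlap and 0.165% were called. At an unadjusted p under 0.05 edgeR gave 1 of the 7 and 20.3% of all genes. For the combination, ABCC3 averaged 169 ± 159 CPM (SD, n = 4), with a log2 ratio of 2.45 against vehicle (SE 0.778, adjusted p = 0.106 in edgeR). In that comparison 0.734% of all genes were called, and 2 of the 7 and 22.4% of all genes had an unadjusted p under 0.05. Both sets of tumours were fully separate in 11.2% of genes and in 1 of the 7 transporters, ABCC2, whose log2 ratio was 0.63 (SE 0.249, adjusted p = 0.163 in edgeR). Comparisons with vehicle share the 4 vehicle tumours.

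Adding nab-paclitaxel to phenelzine gave the lowest p-values of these pairwise comparisons. ABCC3 in the combination stood against 24.7 ± 10.1 CPM with phenelzine (SD, n = 4), log2 ratio 2.77 (SE 0.788, adjusted p = 0.0696 in edgeR). ABCC2 averaged 4.56 ± 1.25 CPM in the combination and 2.73 ± 0.453 CPM with phenelzine (SD, n = 4 each), log2 ratio 0.73 (SE 0.249, adjusted p = 0.111 in edgeR). Here 2.27% of all genes were called, 2 of the 7 and 23.0% of all genes had an unadjusted p under 0.05, and 10.9% did not overlap between groups, as did ABCC2 alone of the 7. Single tumours and the choice of test decided whether ABCC3 was called. The share of all genes called in those other fits is not given here, and the shares above are of edgeR with all libraries. Without combination 2 ABCC3 passed against vehicle (edgeR adjusted p = 0.0206) and against phenelzine (0.0154), and without combination 4 against phenelzine (0.0455). DESeq2 called ABCC3 in all 3 comparisons, with adjusted p of 0.0363 for nab-paclitaxel against vehicle, 0.0103 for the combination against vehicle and 0.00235 for the combination against phenelzine, and ABCC2 in the last (0.0456). Limma voom with quality weights called neither gene in any of them, with ABCC3 log2 ratios of 1.65 for nab-paclitaxel against vehicle (adjusted p = 0.120), 0.98 for the combination against vehicle (adjusted p = 0.453) and 1.26 against phenelzine (adjusted p = 0.344). With the mouse share as a covariate, the ABCC3 log2 ratios in the same order were 1.07, 0.72 and 0.64, with edgeR adjusted p of 0.549 or more. Without the libraries that stand apart, the ABCC3 log2 ratios were 0.88 for nab-paclitaxel against vehicle, 0.15 for the combination against vehicle and 0.47 for the combination against phenelzine, with edgeR adjusted p of 0.577 or more. Those of ABCC2 were then 0.26 for the combination against vehicle (adjusted p = 0.689 in edgeR) and 0.35 for the combination against phenelzine (adjusted p = 0.501 in edgeR), and with the mouse share as a covariate 0.20 and 0.16, with edgeR adjusted p of 0.967 or more.

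ABCC1, or MRP1, a broad exporter of glutathione conjugates and several cytotoxic drugs, lies at chr16:15949143-16143053. Its group means were close to each other, from 53.8 to 59.9 CPM, and its spread was wider in the groups with the taxane. Combination tumours 1 to 4 had 74.0, 41.1, 64.3 and 51.0 CPM, and nab-paclitaxel tumours 72.2, 44.9, 55.1 and 67.3 CPM. Phenelzine tumours had 54.4, 56.2, 57.3 and 47.2 CPM, and vehicle tumours 62.4, 54.7, 63.1 and 59.2 CPM. The 4 libraries that stand apart held the 4 highest values of all 16, and combination 2 and nab-paclitaxel 2 the 2 lowest. As for ABCC3, how many of all genes share this pattern was not counted. The coefficient of variation was 25.1% with the combination and 20.6% with nab-paclitaxel, against 8.42% with phenelzine and 6.41% with vehicle, a difference in spread that was not tested. The log2 ratio of nab-paclitaxel averaged over phenelzine was 0.049 (SE 0.123, adjusted p = 0.804 in edgeR) with all libraries and -0.24 (SE 0.0934, adjusted p = 0.231 in edgeR) without the 4 that stand apart.

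ABCC4, or MRP4, an exporter of cyclic nucleotides and prostaglandins at chr13:95019835-95301451, had its 4 lowest values in those same libraries. How common this pattern is among all genes was not counted. Combination tumours 1 to 4 had 32.7, 44.2, 34.4 and 37.98 CPM, and nab-paclitaxel tumours 31.9, 45.9, 38.1 and 31.3 CPM. Phenelzine tumours had 46.0, 49.7, 37.0 and 36.1 CPM, and vehicle tumours 35.1, 40.3, 45.9 and 46.8 CPM. The averaged nab-paclitaxel effect was -0.18 on the log2 scale (SE 0.111, adjusted p = 0.249 in edgeR), and -0.019 (SE 0.119, adjusted p = 0.964 in edgeR) without the libraries that stand apart. The difference between ABCC3 and ABCC4 can be read inside each library, where scaling does not enter. ABCC3 had 10.3, 0.278, 7.90 and 1.47 counts for each ABCC4 count in combination tumours 1 to 4 and 7.49, 0.944, 1.85 and 5.87 in nab-paclitaxel tumours. The ratio was 0.369 to 0.783 in phenelzine and 0.383 to 1.09 in vehicle tumours.

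ABCC5, or MRP5, lies at chr3:183919934-184017884, and ABCC10, or MRP7, a taxane carrier, at chr6:43427541-43451994. Both had the smallest coefficients of variation of the 7 over all 16 libraries, 11% for ABCC5 and 12.9% for ABCC10. ABCC5 averaged 56.9 ± 10.6 CPM with the combination, 59.6 ± 6.71 with nab-paclitaxel, 59.8 ± 2.10 with phenelzine and 58.7 ± 6.21 with vehicle (SD, n = 4 each). Its lowest value was 41.7 CPM in combination 1 and its highest 68.0 CPM in vehicle 2. ABCC10 averaged 60.8 ± 11.1 CPM with the combination, 60.7 ± 8.11 with nab-paclitaxel, 60.5 ± 9.22 with phenelzine and 66.8 ± 3.37 with vehicle (SD, n = 4 each), and ran from 47.7 CPM in phenelzine 2 to 72.5 CPM in combination 2. The averaged nab-paclitaxel effect was -0.023 on the log2 scale for ABCC5 (SE 0.0946, adjusted p = 0.880 in edgeR) and -0.066 for ABCC10 (SE 0.103, adjusted p = 0.679 in edgeR). The sign of both changed with the setting, up to 0.084 for ABCC5 and 0.073 for ABCC10 with the mouse share as a covariate. The 95% intervals of these effects were -0.22 to 0.18 for ABCC5 and -0.29 to 0.15 for ABCC10.

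ABCG2, at chr4:88090264-88231626, had low RNA levels, with 11 to 58 counts per library. Combination tumours 1 to 4 had 1.01, 2.06, 0.895 and 1.03 CPM, and nab-paclitaxel tumours 1.55, 1.63, 1.76 and 1.59 CPM. Phenelzine tumours had 1.19, 0.879, 0.689 and 1.10 CPM, and vehicle tumours 0.645, 1.23, 1.98 and 1.29 CPM. The nab-paclitaxel values lay close together and inside the vehicle range. The averaged nab-paclitaxel effect was 0.36 on the log2 scale (SE 0.244, adjusted p = 0.301 in edgeR). The effect of phenelzine averaged over nab-paclitaxel was -0.40 (SE 0.244, adjusted p = 1.0 in edgeR).

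Summed over the 7 tested genes, transporter RNA was 388 ± 150 CPM with the combination, 357 ± 99.5 with nab-paclitaxel, 244.7 ± 12.9 with phenelzine and 263 ± 6.29 with vehicle (SD, n = 4 each), in which long transcripts weigh more. Without ABCC3 the other 6 summed to 218 ± 9.15 CPM with the combination, 222 ± 14.8 with nab-paclitaxel, 220 ± 10.2 with phenelzine and 232 ± 7.43 with vehicle. ABCC3 made up 61.7%, 5.12%, 56.2% and 19.9% of the 7 genes' counts in combination tumours 1 to 4 and 52.2%, 17.6%, 23.4% and 43.7% in nab-paclitaxel tumours. It made up 6.82% to 15.2% in phenelzine tumours and 6.84% to 15.3% in vehicle tumours.

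**Figure D5:**
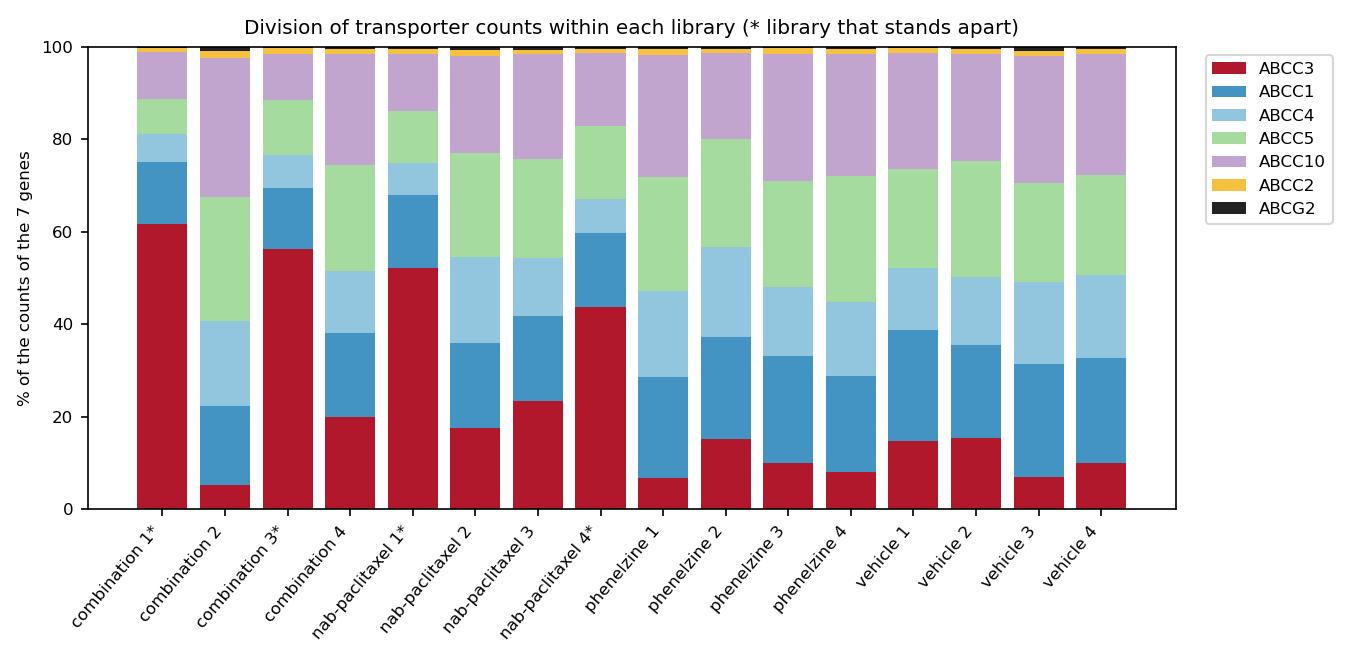
Share (y axis, %) of each of the 7 tested transporters in their summed counts, 1 bar per library (x axis), with an asterisk on the 4 libraries that stand apart. ABCC3 (dark red) fills 43.7% to 61.7% of these 4 bars and 5.12% to 23.4% of the other 12.

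For phenelzine no transporter passed the threshold. Against vehicle, log2 ratios ran from -0.41 for ABCG2 to 0.025 for ABCC5, 0 of 7 passed, and 0% of all genes tested passed. ABCC3 had a log2 ratio of -0.32 (SE 0.742, adjusted p = 1.0 in edgeR) and ABCC2 of -0.099 (SE 0.248, adjusted p = 1.0 in edgeR). At an unadjusted p under 0.05 edgeR gave 0 of the 7 and 2.35% of all genes, and DESeq2 and limma voom called 0 of the 7. Averaged over nab-paclitaxel, 0 of 7 and 0% of all genes passed, with log2 ratios of 0.0075 for ABCC3 (SE 0.524) and 0.076 for ABCC2 (SE 0.175). On top of nab-paclitaxel, the combination differed from the taxane alone by 0.33 on the log2 scale in ABCC3 (SE 0.737, adjusted p = 1.0 in edgeR) and 0.25 in ABCC2 (SE 0.248, adjusted p = 1.0 in edgeR), with 0 of 7 and 0.00552% of all genes called. The interaction of the drugs was 0.65 for ABCC3 (SE 1.05, adjusted p = 1.0 in edgeR) and 0.35 for ABCC2 (SE 0.351, adjusted p = 1.0 in edgeR), with 0 of 7 and 0% of all genes called. In these 3 contrasts too, edgeR gave 0 of the 7 at an unadjusted p under 0.05. Beside this stood 2.20% of all genes for averaged phenelzine, 2.94% for the combination against nab-paclitaxel and 3.0% for the interaction. DESeq2 and limma voom called 0 of the 7. The share of all genes that DESeq2 and limma voom called in these contrasts and for phenelzine against vehicle is not given here.

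Among 11575 other genes with a mean of at least 5 CPM, the gene whose levels ranked most like those of ABCC3 over the 16 libraries was ENSG00000167767, with a Spearman rho of 0.985, and 379 genes had a rho over 0.8. For ABCC4 it was ENSG00000114450, with a rho of 0.956, and 311 genes over 0.8. Over the 12 libraries without those that stand apart, rho was 0.986 and 0.944. The points share depth and host share within a library, so these values describe likeness only. Among the transporters themselves, rho with ABCC3 ran from -0.60 for ABCC4 to 0.57 for ABCC1. The files name neither ID.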

How the data were processed

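Whole-number counts per Ensembl gene ID were deposited by the authors as 1 human and 1 mouse matrix of the same 16 libraries. The submitters' processing notes name Trimmomatic 0.36, HISAT2 2.04, Picard, StringTie and edgeR with builds hg38 and mm10, without roles. The sources used here do not state the counting, strand use, annotation or division of reads between species, so reads of mouse orthologues, of near-identical copies or of overlapping genes (RUNDC3B at ABCB1, ABCC5-AS1 at ABCC5, DLK2 at ABCC10) could enter a human count. Human totals were 11065140 to 34537399 counts.

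All 58051 human genes entered 1 model (edgeR 4.0.16, R 4.3.3) with TMM scaling, the filter of that tool for low counts (minimum count 10), 1 mean per group, 12 residual degrees of freedom, quasi-likelihood F test, and Benjamini-Hochberg adjustment over the 18131 genes tested, with a threshold of 0.05. SE is the absolute log2 fold change over the square root of F. Alternatives used DESeq2 1.42.0 and limma 3.58.1 (voom), other scaling, no filter, fewer libraries, a mouse share covariate and a replicate block. Libraries of a group differed far beyond counting noise (chi-square per degree of freedom at least 43.8). P-values set differences between group means against the spread between tumours, each from 1 mouse, all of 1 cell line.

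The members, lists and tests were chosen with earlier results of these data known. All 9 members are named, and for likeness the other gene with the highest rho, of which the 2 highest are printed. Symbols of the 9 come from the rule that chose them and locations from RefSeq by symbol. The lists fixed for other transporters, taxane handling, glutathione conjugation and host orthologues (81 symbols) were not analysed here, since 0 could be paired with IDs.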

Additional observations from a re-analysis of the deposited data

Results flagged for a closer look

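For the 7 tested transporters in each group of 4 tumours, and for ABCB1 with phenelzine, where the group held at least 20 counts, 29 sets in all, the gap of the highest or lowest tumour to its nearest neighbour was set against the range of the group, a check that chance alone meets in about 1 of 20 groups. It singled out 2 values, a number close to what chance alone gives at that rate over 29 sets. ABCG2 in combination 2 was 2.06 CPM, with the next tumour of that group at 1.03 CPM, and ABCC5 in vehicle 2 was 68.0 CPM, with the next at 56.3 CPM. Their causes were not tested.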

How the results depend on the processing

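For nab-paclitaxel averaged over phenelzine, 2 transporters were called, and also with the replicate number as a block (2), DESeq2, its size factors or unscaled totals, the last chosen after the data were seen. It was 1 with limma voom, 1 with no filter, 0 with the mouse share in the model, 0 without the libraries that stand apart, and 1 to 2 with 1 library left out. Between single groups, where 0 were called, DESeq2 called 1 for nab-paclitaxel against vehicle, 1 for the combination against vehicle and 2 for it against phenelzine, and leaving out 1 library gave 0 to 1 in the last 2. The share of all genes called in these other fits is not given here. The block changed no call. Same-numbered tumours were not paired by the labels: 4 of 24 pairs had deviations correlated over 0.1 (r -0.43 to 0.57), and 6 of 16 libraries matched their own number best. Among these settings, only effects that were not called turned sign. Without the libraries that stand apart, with voom and with the mouse share, the averaged nab-paclitaxel log2 fold changes were -0.24, -0.046 and -0.20 for ABCC1, 0.067, 0.042 and 0.084 for ABCC5, and 0.029, 0.036 and 0.073 for ABCC10. ABCC5 was also 0.00047 with DESeq2's size factors, 0.0027 with DESeq2 and 0.043 with unscaled totals. In the same order of 3 settings, ABCC3 was -0.73, -0.67 and -0.35 for the combination against nab-paclitaxel, -0.53, -0.47 and -0.14 for averaged phenelzine and -0.42, -0.39 and -0.42 for the interaction. With the block, averaged phenelzine gave -0.016 for ABCC3. Phenelzine against vehicle with the mouse share gave 0.074 for ABCC3 and 0.035 for ABCC2. With 1 library left out, values ran from -0.0078 to 0.13 for ABCC1 and -0.042 to 0.052 for ABCC5 (averaged nab-paclitaxel), -0.24 to 0.78 for ABCC3 (combination against nab-paclitaxel), -0.28 to 0.23 for ABCC3 and -7.6e-05 to 0.20 for ABCC2 (averaged phenelzine), and -0.17 to 0.0029 for ABCC2 (phenelzine against vehicle). Of 865 further values of the other 5 genes, 102 changed sign and 0 were called. The causes were not tested. With 37 and 18 counts in all, depth is among the limits on ABCB1 and ABCB5.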
